A study of Homo sapiens with 4 samples.

Results

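ATP-dependent chromatin remodelers are enzymes and their partner subunits that use ATP to slide, eject or exchange nucleosomes. The promoters of 47 genes that encode them were followed in HEK293T cells with and without added MORC2. The 47 genes were chosen by name: every row of the promoter count table whose Entrez gene identifier belongs to a listed SWI/SNF, ISWI, CHD, INO80 or related remodeler was taken. All 47 were among the 28775 promoters of the table, and all 47 were among the 23407 that passed the filter on low counts. They comprised 27 SWI/SNF genes, 5 ISWI genes, 9 CHD genes, 5 genes of the INO80 family and SMARCAD1.

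Chromatin accessibility was measured by ATAC-seq, which reads out open DNA by where a transposase, Tn5, can place sequencing adapters, in HEK293T, a widely used human cell line derived from embryonic kidney and transformed with large T antigen. The overexpression group (n = 2) was transfected with a plasmid carrying wild-type MORC2 fused to the fluorescent protein meGFP, and the control group (n = 2) received lipofectamine. Whether that control contained an empty plasmid is not stated in the labels. Cells of both groups had wild-type MORC2 of their own, and the methods give 72 hours from transfection to harvest. The transfection was transient, and the share of cells that took up the plasmid is not stated. Replicates are numbered 1 and 2 in the labels, which do not say whether they were separate cultures, so the spread between libraries may be technical. The p-values of the main test rest on this spread pooled over promoters of like abundance. They do not measure the spread of each promoter by itself.

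The remodelers fall into families by their ATPase. SWI/SNF complexes, known in mammals as BAF, PBAF and ncBAF, slide and eject nucleosomes and open enhancers and promoters. ISWI complexes space nucleosomes evenly, CHD proteins carry paired chromodomains, and INO80-family complexes exchange histone variants such as H2A.Z. MORC2, the protein that was overexpressed, is a DNA-binding ATPase of another class that takes part in gene silencing. The measurement here is of how open the promoters of the remodeler genes were; neither RNA nor protein of the remodelers was measured in these libraries.

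The promoters of 6 members are shown because the results turn on them. SRCAP, CHD1, PHF10 and ARID1A had high or intermediate accessibility and an unadjusted p under 0.05, and ACTL6B and SMARCE1 had the lowest accessibility of the 47. Each run is the 250 bases before the start site in RefSeq on build GRCh38.p14, 5′ to 3′ on the strand of the gene. Capitals mark matches on either strand to GGGCGG, the GC box bound by SP1 (CCGCCC on the other strand), or to CCAAT, the box bound by NF-Y (ATTGG on the other strand); neighbouring matches may overlap.
SRCAP (chr16:30698921-30699170, plus strand): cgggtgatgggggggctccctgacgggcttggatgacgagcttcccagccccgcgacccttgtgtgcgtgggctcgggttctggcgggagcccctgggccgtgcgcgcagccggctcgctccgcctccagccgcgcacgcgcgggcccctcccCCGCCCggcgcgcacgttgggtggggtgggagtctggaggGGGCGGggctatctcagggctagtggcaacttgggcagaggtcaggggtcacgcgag
CHD1 (chr5:98929008-98929257, minus strand): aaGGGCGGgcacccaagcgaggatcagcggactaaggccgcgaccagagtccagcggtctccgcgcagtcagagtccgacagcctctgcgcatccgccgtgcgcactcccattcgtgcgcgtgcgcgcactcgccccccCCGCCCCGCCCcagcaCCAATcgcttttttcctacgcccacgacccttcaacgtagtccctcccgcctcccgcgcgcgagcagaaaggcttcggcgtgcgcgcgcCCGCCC
PHF10 (chr6:169724501-169724750, minus strand): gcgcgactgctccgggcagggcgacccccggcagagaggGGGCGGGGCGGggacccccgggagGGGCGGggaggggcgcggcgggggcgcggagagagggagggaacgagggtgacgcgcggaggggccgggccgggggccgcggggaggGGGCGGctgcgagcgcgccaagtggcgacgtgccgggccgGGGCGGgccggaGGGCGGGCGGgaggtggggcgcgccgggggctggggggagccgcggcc
ARID1A (chr1:26695765-26696014, plus strand): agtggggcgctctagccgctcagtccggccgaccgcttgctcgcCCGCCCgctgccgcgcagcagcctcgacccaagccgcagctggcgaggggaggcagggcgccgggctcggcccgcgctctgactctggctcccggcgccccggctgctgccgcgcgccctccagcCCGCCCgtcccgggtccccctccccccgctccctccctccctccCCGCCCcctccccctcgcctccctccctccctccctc
ACTL6B (chr7:100656449-100656698, minus strand): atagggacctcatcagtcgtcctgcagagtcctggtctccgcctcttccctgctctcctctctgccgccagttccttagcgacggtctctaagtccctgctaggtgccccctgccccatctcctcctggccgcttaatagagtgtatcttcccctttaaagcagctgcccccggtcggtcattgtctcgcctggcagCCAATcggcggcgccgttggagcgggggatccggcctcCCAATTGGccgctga
SMARCE1 (chr17:40647819-40648068, minus strand): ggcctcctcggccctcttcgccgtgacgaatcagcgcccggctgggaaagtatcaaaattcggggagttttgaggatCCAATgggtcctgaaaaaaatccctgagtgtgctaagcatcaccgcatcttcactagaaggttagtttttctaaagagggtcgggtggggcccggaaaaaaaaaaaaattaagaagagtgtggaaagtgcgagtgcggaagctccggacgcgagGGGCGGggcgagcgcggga

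The 4 promoters of higher accessibility had a GC content from 70.8% to 86.4% over these 250 bases, and ACTL6B and SMARCE1 had 62.4% and 54.4%. PHF10 held 7 GC boxes and no CCAAT box, CHD1 held 4 GC boxes and 1 CCAAT box, ARID1A held 3 GC boxes, and SRCAP held 2. ACTL6B held 3 CCAAT boxes and no GC box in this stretch, whereas SMARCE1 held 1 of each. A RefSeq sequence was found for 38 of the 47 members, of which 22 had 1 start site and 16 had several. The printed promoters were picked for their results, and their split in GC content does not hold for every member. Over 300 bases around the start, CHD8 and SMARCA5, both more accessible than ARID1A, had 59.7% and 59% GC. DPF1 and BRD7, both less accessible than ARID1A, had 75.3% and 73.3%. For GC content and mean accessibility, Spearman's rho was 0.38 across the 22 members, against 0.47 across all tested genes with 1 start site.

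Among the 22 members with 1 start site, the median GC content of the 300 bases from 250 before to 50 after the start was 70% (range from 56% to 85.3%), against 63% for 12989 tested genes with 1 start site and 66% for the 8758 of these whose accessibility lay in the range of the members. A GC box was present in 18 of the 22 (81.8%), against 59.5% of the 12989 and 72.7% of the 8758. CCAAT was present in 8 of the 22 (36.4%), close to the 35.8% of all. The ETS motif CCGGAAG was found in 2 of 22, CHD4 and EP400 (9.09%, against 15.1% of all), and AAGATGG, the core of the YY1 motif, in 2 of 22, DPF2 and SMARCD1 (9.09%, against 6.56%). Neither TATAAA, the TATA box, nor GCATGCG, from the NRF1 motif, was found in any of the 22, against 7.92% and 5.31% of all. Both strands were searched, and a match describes letters in this window, not a bound site.

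Accessibility is given as TMM-scaled CPM, the counts of fragments in the 2 kb promoter window relative to the scaled library total. The windows are assumed to be counted over their whole, equal width, and levels of different genes are compared per window on that basis. Which start site was counted for genes with several is not stated, and its part in differences between genes was not tested. The 47 promoters together held 14597 counts in control replicate 1, 10995 in control replicate 2, 5221 in overexpression replicate 1 and 2799 in overexpression replicate 2. In the same order the median member had 306, 227, 110 and 61 counts, and the fewest counts of any member were 14, in overexpression replicate 2, so the overexpression values are the less precise ones. Total counts per library ran from 3734519 to 10255182, and mitochondrial promoters took 53.8% ± 2.60 of them in control and 74.2% ± 0.640 in overexpression (SD, n = 2 each). Of the counts at nuclear promoters, the members took 0.298% ± 0.00214 in control and 0.286% ± 9.48e-05 in overexpression (SD, n = 2 each), a difference larger than the spread between replicates; no exact permutation p below 0.333 is possible with 2 libraries against 2. Between the control replicates the chi-square per degree of freedom over the members was 1.25, and between the overexpression replicates it was 1.08, against 1.29 to 1.70 for pairs of libraries from different groups. Over all nuclear promoters the values were 1.25 and 1.12 within the groups and 1.71 to 1.95 between them, so the larger values between groups are not particular to the members.

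The promoters of the cell line's own markers were open to different degrees. VIM, the intermediate filament vimentin, had 46.6 to 51.5 CPM over the 4 libraries, whereas KRT8, KRT18 and PAX2 were less open and were higher in both overexpression libraries. The keratin gene KRT8 had 5.20 and 6.73 CPM in control and 7.83 and 10.6 CPM in overexpression (log2 fold change 0.59, edgeR adjusted p = 0.133), its partner KRT18 had 5.70 and 7.30 against 8.57 and 11.0 (0.56, adjusted p = 0.142), and PAX2, a kidney transcription factor, had 3.92 and 3.27 against 6.15 and 5.14 (0.67, adjusted p = 0.181). Their unadjusted p-values were 0.00939, 0.0106 and 0.0179, and the part of this shift in the results on the remodelers was not tested. The leukocyte genes PTPRC and CD3E and the liver gene ALB stayed at or below 1.86 CPM and failed the filter, and the insulin gene INS had 2.79 to 4.11. The MORC2 promoter itself had 18.3 and 15.6 CPM in control and 16.2 and 14.4 CPM in overexpression (log2 fold change −0.14, SE 0.155, edgeR adjusted p = 0.695). That value does not check the overexpression, because the plasmid carries the coding sequence and not this promoter.

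The remodeler promoters were well open. Their mean accessibility over the 4 libraries ran from 5.32 to 48.2 CPM with a median of 22.1 CPM, against a median of 12.1 CPM for all promoters tested. When all tested promoters were divided by mean accessibility into 4 bins of equal size, 24 members fell in the highest bin, 16 in the next, 7 in the one below and 0 in the lowest. SRCAP, the ATPase that loads H2A.Z into nucleosomes, had the highest mean (48.2 CPM), followed by CHD1, an ATPase that binds the histone mark H3K4me3 (44.2 CPM), and ARID2, the subunit that defines PBAF (37.8 CPM). SRCAP exceeded CHD1 in both control libraries and in overexpression replicate 1, but not in overexpression replicate 2, so the order of these 2 lay within the spread of the libraries.

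The lowest members were SMARCE1 (5.32 CPM), a core SWI/SNF subunit, ACTL6B (5.64 CPM), the actin-related subunit of neuronal BAF, CHD5 (7.20 CPM), a CHD protein known mainly from neurons, CHD2 (9.58 CPM) and the ISWI ATPase SMARCA1 (10.9 CPM). SMARCE1 had 4.77 and 5.57 CPM in control and 6.15 and 4.80 CPM in overexpression, and ACTL6B had 5.48 and 5.86 against 5.41 and 5.83. These values overlapped, both between the 2 genes and between the 2 groups. CHD5 had 6.77 and 6.82 CPM in control against 8.02 and 7.20 CPM in overexpression, with both overexpression values the higher. CHD2 had 9.54 and 8.75 against 12.5 and 7.54 CPM, and SMARCA1 had 11.9 and 10.5 against 11.9 and 9.25 CPM. For both genes the groups overlapped. None of these 5 passed the test (log2 fold changes 0.14 for SMARCE1, −0.024 for ACTL6B, 0.18 for CHD5, 0.22 for CHD2 and −0.040 for SMARCA1; edgeR adjusted p from 0.598 to 0.973). Without overexpression replicate 1, SMARCE1 was at −0.10 and CHD2 at −0.30.

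**Figure D1:**
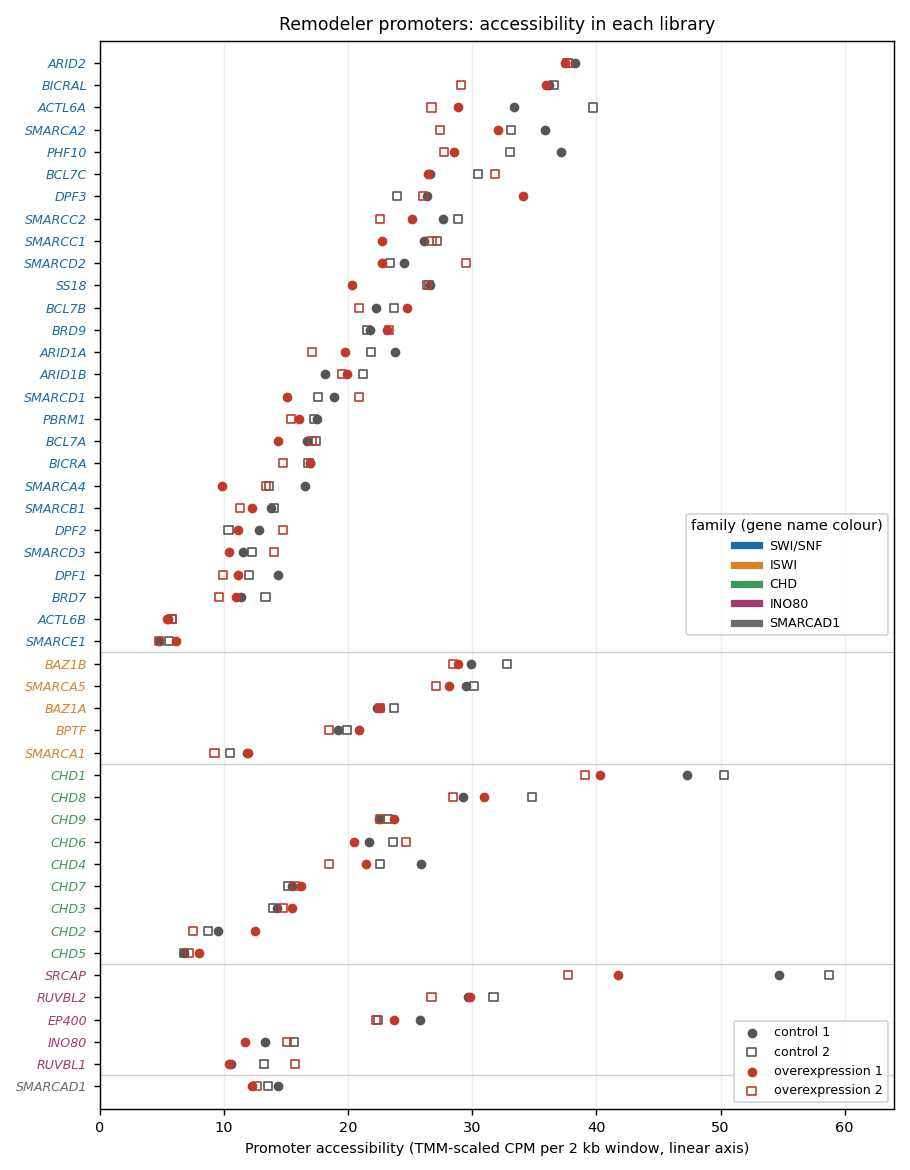
Promoter accessibility in TMM-scaled CPM (linear axis) of the 47 remodeler genes, grouped by family and sorted by mean, with 1 point for each of the 4 libraries. SRCAP and CHD1 lie furthest to the right, with both red overexpression points left of both grey control points, and the points of most other genes are mixed.

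Paralogous remodeler genes, many of which encode alternative subunits or ATPases, often differed in how open their promoters were. Of 28 pairs compared, the gene with the higher mean led in all 4 libraries in 24, and no pair reached 10-fold. The higher gene was chosen by its mean over these same 4 libraries, so the count describes only how evenly the libraries ranked each pair. No share for other pairs of promoters was computed, so nothing particular to paralogs follows from it. The part of the start site counted for each gene in these gaps was not tested. The widest gap was between ACTL6A and ACTL6B, which are exchanged when neural progenitors become neurons: the ACTL6A promoter was 5.70 times as accessible. CHD1 exceeded CHD2 4.62 times, CHD4 exceeded CHD5 3.07 times, and SMARCA5 exceeded SMARCA1, the other ISWI ATPase, 2.64 times. SMARCA2 exceeded SMARCA4, the alternative ATPase of SWI/SNF, 2.40 times. In 4 pairs neither gene led throughout: ARID1A led ARID1B in 2 of 4 libraries, CHD9 led CHD6 in 2, SMARCC2 led SMARCC1 in 3 and DPF2 led DPF1 in 1. The means in these 4 pairs differed by 1.01 to 1.05 times.

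**Figure D2:**
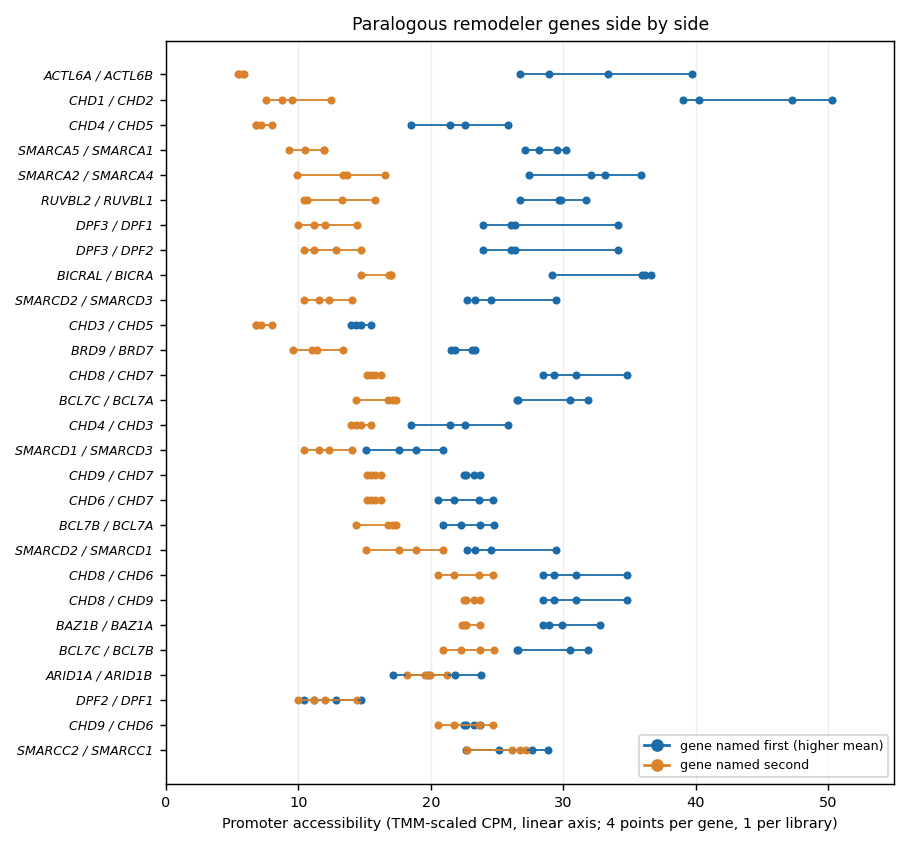
Accessibility (TMM-scaled CPM, linear axis) of 28 pairs of paralogous remodeler genes, with 4 points per gene for the 4 libraries joined by a line from lowest to highest. The pairs are sorted by the ratio of their means, from ACTL6A and ACTL6B (5.70 times) at the top, and the ranges of the 4 pairs at the bottom overlap.

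To ask whether added MORC2 changed the accessibility of remodeler promoters, overexpression was compared with control by the edgeR quasi-likelihood F-test (two-sided) over all 23407 promoters, with Benjamini-Hochberg adjustment. Of the 47 members, 1 fell and 0 rose at an adjusted p under 0.05: SRCAP. Across all promoters tested, 577 (2.47%) passed this threshold, of which 305 (1.30%) fell and 272 (1.16%) rose. In the highest of the 4 bins by accessibility, which held SRCAP, 1 of 24 members fell, against 4.34% of all promoters of that bin. Scaled by library totals, which include the mitochondrial counts, 47 of 47 members and 69.7% of all promoters passed, with a median of −0.78 over all promoters. An unadjusted p under 0.05 was reached by 7 of 47 members (14.9%), against 17.2% of all promoters, so the members were past this level about as often as promoters in general. Of these 7, 6 lay below control (SRCAP, ACTL6A, PHF10, CHD1, SMARCA4 and ARID1A), against 8.57% of all promoters, and 1 above, DPF3 (8.66%). In the highest bin 4 of 24 members lay below control at this level, against 22.2% of all promoters of that bin. In the next bin 2 of 16 did, against 8.96%.

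At the SRCAP promoter, 768 and 611 fragments were counted in control and 224 and 110 in overexpression. In scaled units these were 54.7 and 58.7 CPM in control and 41.8 and 37.7 CPM in overexpression. The groups did not overlap, with overexpression lower throughout. The means were 56.7 ± 2.84 and 39.7 ± 2.87 CPM (SD, n = 2 each). The fitted log2 fold change was −0.49 (SE 0.108, 95% interval from −0.71 to −0.28; edgeR adjusted p = 0.00171), which is a fall of 28.9% in the fit. The call was kept under 11 of 14 alternative ways of processing and was lost under 3. Among the 11 was the scaling by library totals, where 47 of 47 members and 69.7% of all promoters passed, so that setting is no check on SRCAP. When libraries were scaled by a loess curve on abundance, which removes the shared trend described below, the log2 fold change was −0.33 with an adjusted p of 0.224. Without overexpression replicate 1 it was −0.59 (adjusted p = 0.0581), and without overexpression replicate 2 it was −0.45 (adjusted p = 0.109).

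**Figure D3:**
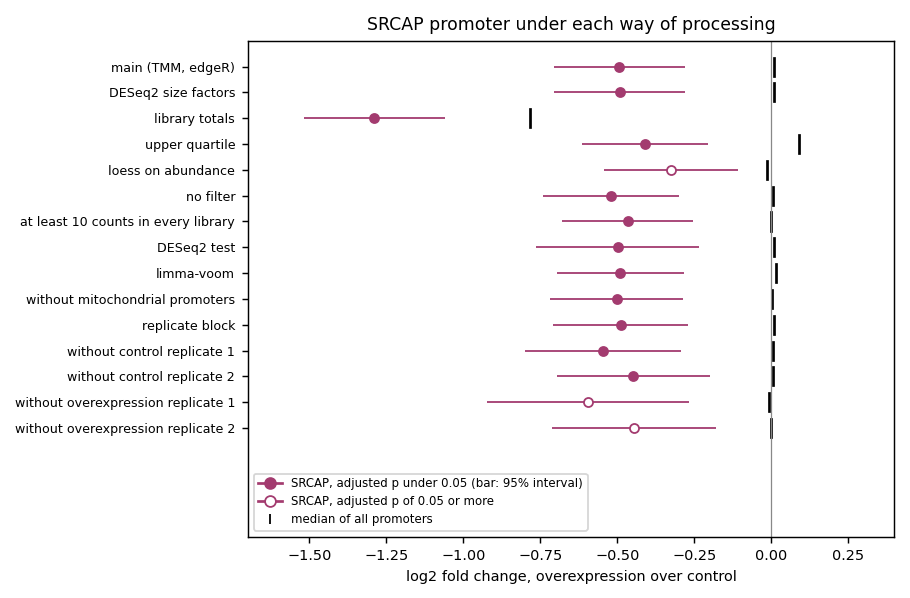
Log2 fold change of the SRCAP promoter (points, with 95% intervals as bars) and the median of all promoters (black ticks) in the main test and under 14 alternatives. Filled points have an adjusted p under 0.05; the 3 open points are the loess scaling (−0.33) and the fits without overexpression replicate 1 (−0.59) or 2 (−0.45).

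The start site of SRCAP lies beside that of LOC730183, which is read from the opposite strand. For LOC730183, 755 and 602 fragments were counted in control, against 220 and 108 after overexpression (log2 fold change −0.50; edgeR adjusted p = 0.0017), so nearly the same fragments were counted for both genes and the fall cannot be assigned to one of them. Such neighbours were not rare: 11 of the 38 members with a RefSeq promoter had 13 neighbouring genes between them, 12 of these on the opposite strand. The counts of CHD1 (664, 523, 216 and 114 in control replicates 1 and 2 and overexpression replicates 1 and 2) and of its divergent transcript CHD1-DT (667, 523, 214 and 113) were almost equal. The same held for BRD9 and TRIP13, PBRM1 and GNL3, RUVBL1 and EEFSEC, RUVBL2 and GYS1, and SMARCAD1 and SMARCAD1-DT. ACTL6B shared its window with LOC105375429, with 77 and 61 control counts in both. Of the 13 neighbours, LOC730183 was the one past the threshold.

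Among the members with an unadjusted p under 0.05 that did not pass the adjusted threshold, ACTL6A was nearest to it. ACTL6A, an actin-related subunit shared by SWI/SNF, INO80 and TIP60 complexes, had 33.4 and 39.7 CPM in control against 28.9 and 26.7 CPM in overexpression (log2 fold change −0.37, SE 0.122, edgeR adjusted p = 0.0724). PHF10, a PBAF subunit, had 37.2 and 33.1 CPM against 28.5 and 27.8 (−0.32, SE 0.122, adjusted p = 0.128). In both genes the 2 overexpression values lay close together and below both control values. CHD1 had 47.3 and 50.3 CPM against 40.3 and 39.1 (−0.29, SE 0.110, adjusted p = 0.129). SMARCA4, also called BRG1, had 16.5 and 13.6 CPM against 9.88 and 13.4, so that overexpression replicate 2 reached almost to control replicate 2 (−0.45, SE 0.174, adjusted p = 0.131). Its log2 fold change ran from −0.63 to −0.20 when single libraries were left out. ARID1A, the large DNA-binding subunit of BAF, had 23.8 and 21.8 CPM against 19.8 and 17.1 (−0.29, SE 0.141, adjusted p = 0.274). DPF3, the histone-reading subunit of BAF, was the member with the largest value above 0. It had 26.4 and 23.9 CPM in control against 34.1 and 26.0 in overexpression, where replicate 2 lay between the control values (log2 fold change 0.30, SE 0.124, adjusted p = 0.176).

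The catalytic ATPases of the SWI/SNF, ISWI and INO80 families and SMARCAD1, 8 genes in all, had log2 fold changes below 0 in 8 of 8. Their median was −0.16, and SRCAP was the one past the threshold. Below 0 lay 48.6% of all promoters, with 77.8% in the highest bin and 60.6% in the next, which held 4 and 3 of the 8. The CHD ATPases, described below, are not among these 8, and of those 9 genes 4 lay below 0 and 5 above. SMARCA2, or BRM, had 35.8 and 33.2 CPM in control and 32.1 and 27.4 CPM in overexpression (−0.19, SE 0.121, edgeR adjusted p = 0.414), and its groups did not overlap. SMARCA5, or SNF2H, had 29.5 and 30.2 CPM against 28.1 and 27.1 (−0.10, SE 0.125, adjusted p = 0.716). INO80 had 13.3 and 15.7 CPM against 11.7 and 15.1, with overlapping groups (−0.15, SE 0.169, adjusted p = 0.696). EP400, the ATPase of the TIP60 complex, had 25.8 and 22.4 CPM against 23.7 and 22.3, which also overlapped in part (−0.068, SE 0.134, adjusted p = 0.840). Under the 14 alternatives the direction held throughout for SMARCA2, SMARCA4, SRCAP and SMARCAD1 and was not fixed for the other 4: under the loess scaling SMARCA5 and EP400 were at 0.0065 and 0.018, under upper-quartile scaling SMARCA1 was at 0.040, and without overexpression replicate 1 INO80 was at 0.062.

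The other SWI/SNF subunits did not move as a block. All 4 PBAF-defining genes lay below 0 (ARID2, PBRM1, BRD7 and PHF10; median −0.18), but 0 of the 4 passed the threshold and ARID2 was nearly level, with 38.3 and 37.7 CPM in control and 37.5 and 37.7 CPM in overexpression (−0.018, SE 0.114, edgeR adjusted p = 0.954; 0.12 under the loess scaling). Of the 5 BAF-defining genes, 2 lay below 0 (ARID1A and DPF1) and 3 above. Of the 3 ncBAF-defining genes, BICRA and BICRAL lay below 0, whereas BRD9, the bromodomain subunit, had 21.8 and 21.5 CPM in control and 23.1 and 23.3 CPM in overexpression, both higher (0.097, adjusted p = 0.761). The 7 core subunits had a median of −0.089 and a range from −0.22 (SMARCB1) to 0.14 (SMARCE1). Over all 27 SWI/SNF genes the median was −0.12, with 19 below 0 and 8 above, and 0 of 27 passed the adjusted threshold.

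Among the 9 CHD genes the median log2 fold change was 0.027, with 4 below 0 and 5 above. CHD1 and CHD4, the main ATPase of the deacetylase complex NuRD, were the lowest: CHD4 had 25.9 and 22.6 CPM in control against 21.4 and 18.5 in overexpression (−0.26, SE 0.138, edgeR adjusted p = 0.310). CHD3 and CHD5, which can replace CHD4 in NuRD, lay above control in both libraries (0.10 and 0.18; adjusted p = 0.788 and 0.724), as did CHD7 (0.066; adjusted p = 0.869). The 3 ISWI partner subunits ranged from −0.12 (BAZ1B) to 0.038 (BPTF). The AAA ATPases RUVBL1 and RUVBL2, which form a ring inside INO80-family complexes, were at 0.070 and −0.095. None of these genes passed the test.

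**Figure D4:**
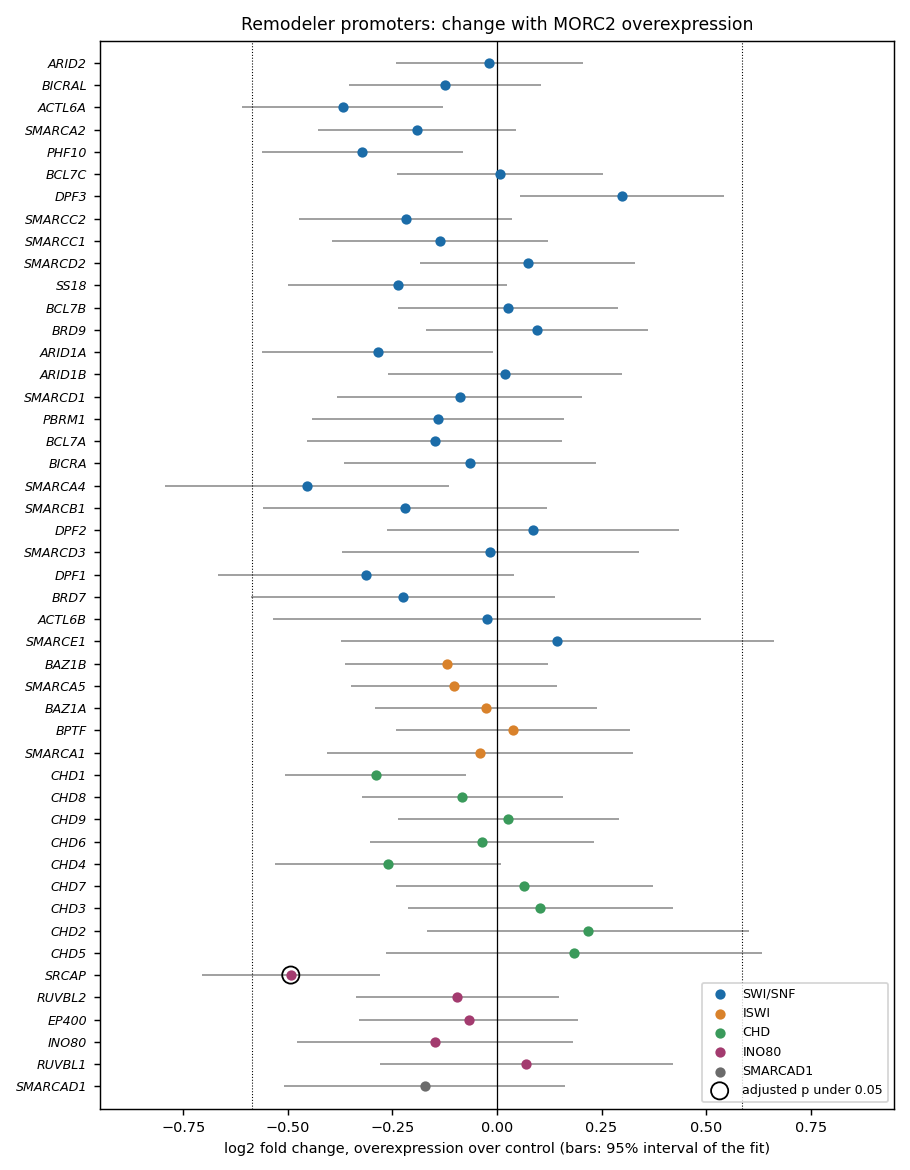
Log2 fold change of overexpression over control (points) with 95% intervals of the edgeR fit (bars) for the 47 remodeler promoters, by family and in order of mean accessibility; dotted lines mark 1.5-fold either way. SRCAP (circled) is the member past the adjusted threshold, and the intervals of 39 members lie between the dotted lines.

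Over the 47 members the log2 fold change ran from −0.49 to 0.30 with SEs from 0.108 to 0.264. The 95% interval lay within 1.5-fold of no change for 39 (83.0%), against 52.2% of all promoters, and it extended further for SRCAP, ACTL6A, SMARCA4, DPF1, BRD7, SMARCE1, CHD2 and CHD5. At equal accessibility the shares were close: in the highest of the 4 bins 22 of 24 members (91.7%) had such an interval, against 91.6% of all promoters of that bin, and in the one below 15 of 16 (93.8%), against 84.8%. The groups did not overlap at 22 members (46.8%, against 49.7% of all promoters): overexpression was the lower at 18 (38.3%, against 24.9% of all promoters) and the higher at 4 (CHD3, CHD5, CHD7 and BRD9; 24.8% of all promoters). At the other 25 the libraries overlapped. The median of the members was −0.083, against 0.0099 for all promoters, and 32 of 47 (68.1%) lay below 0, against 48.6% of all.

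Values below 0 were more frequent at the more accessible promoters. Across all 23407 promoters, log2 fold change decreased as mean accessibility increased (Spearman's rho −0.48), with medians of 0.36, 0.13, −0.056 and −0.12 from the lowest to the highest of the 4 bins. The same measure across the 47 members was −0.32; promoters share the libraries, and these are descriptions across promoters. The 24 members of the highest bin had a median of −0.099, against −0.12 for all promoters of that bin, and 18 of the 24 (75%) lay below 0, against 77.8%. Their groups did not overlap, with overexpression lower, at 11 of 24 (45.8%), against 49.0%. The 16 members of the next bin had a median of −0.077, against −0.056, with 10 of 16 (62.5%) below 0, against 60.6%. In the bin below these lay 7 members (SMARCE1, ACTL6B, CHD5, CHD2, SMARCA1, BRD7 and DPF1). Their median was −0.024, against 0.13 for all promoters of that bin, with 4 of 7 (57.1%) below 0, against 32.8%. Their median accessibility was 9.58 CPM, against 6.95 CPM for the bin, so the bin does not match them closely. The part of accessibility in this difference was not tested. After the median of its own bin was subtracted from each member, 23 members lay below 0 and 24 above, with a median of 0.00063. Mitochondrial share and depth moved with the groups in the same libraries; without the mitochondrial promoters the median of the members was −0.092 and SRCAP was at −0.50 (edgeR adjusted p = 0.00311), and the part of depth in the trend was not tested.

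**Figure D5:**
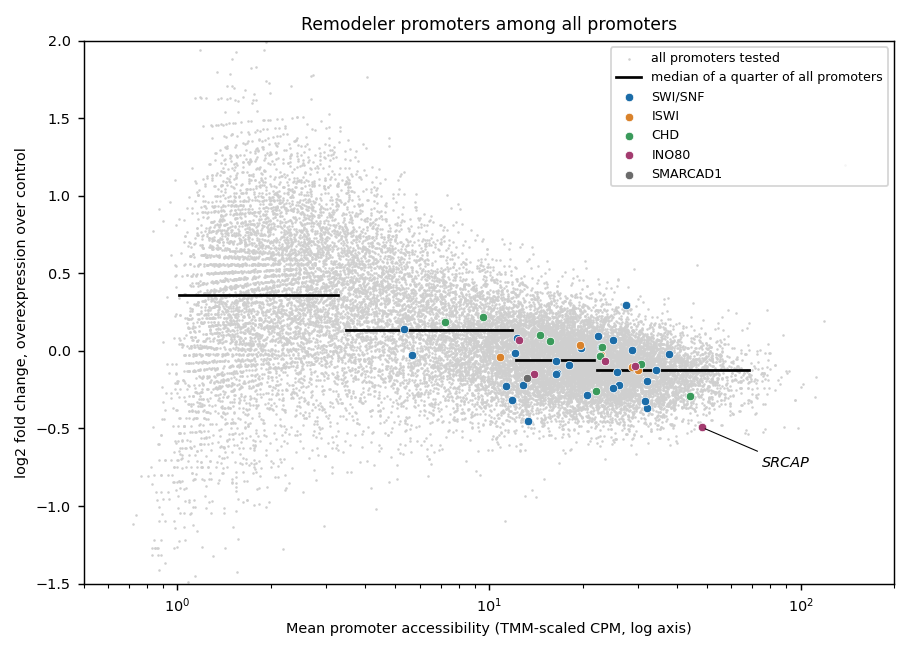
Log2 fold change against mean accessibility (TMM-scaled CPM, log axis) for all tested promoters (grey) and the 47 remodeler promoters (coloured by family), with the median of each of 4 equal bins as a black line; 56 promoters beyond the axes are not drawn. The bin medians step down from 0.36 to −0.12, most members lie in the 2 highest bins, and SRCAP lies below the others at −0.49.

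Base composition moved with the same values. Across the 22 members with 1 start site, GC content and log2 fold change had a Spearman's rho of −0.58, and across the 12989 tested genes with 1 start site it was −0.28. For the number of CpG sites and log2 fold change the values were closer, at −0.45 and −0.38. For GC content and mean accessibility they were 0.38 and 0.47, and for the number of CpG sites and mean accessibility 0.37 and 0.57. The points share the same 4 libraries and differ in accessibility as well as in base composition, and the parts of these were not tested.

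The partner genes of these complexes gave a similar picture. A further 60 genes encode other subunits or related SNF2 proteins, and all 60 were tested. At the adjusted threshold 2 fell and 0 rose, against 1.30% and 1.16% of all promoters. An unadjusted edgeR p under 0.05 was reached by 10 (16.7%), all below control, against 8.57% of all promoters. The highest bin by accessibility held 34 of the 60 and the next held 19. Of all promoters in these 2 bins, 22.2% and 8.96% lay below control at the unadjusted level, and 4.34% and 0.752% fell at the adjusted threshold. GATAD2A, a scaffold subunit of NuRD, had 39.6 and 40.0 CPM in control and 26.1 and 35.6 in overexpression (log2 fold change −0.42, SE 0.120, edgeR adjusted p = 0.0307). CHRAC1, a histone-fold subunit of the ISWI complex CHRAC, had 52.9 and 48.2 CPM against 40.6 and 37.0 (−0.37, SE 0.110, adjusted p = 0.0412). Neither passed under upper-quartile or loess scaling or with DESeq2, where 0 of the 60 did; with a single library left out, 1 of the 60 passed without overexpression replicate 2 and 0 in the other 3 fits. The median of the 60 was −0.022. Among the 12 partners in NuRD it was −0.25, with 10 of 12 below 0. The 27 partners of INO80-family complexes had a median of −0.0081, with 14 of 27 below 0 and 0 past the threshold. Median accessibility was 27.2 CPM for the NuRD partners, 7 of which lay in the highest bin. For the INO80 partners it was 20.0 CPM, with 12 in that bin. Of all promoters 48.6% lay below 0, and 77.8% of the highest bin, where the median was −0.12. The part of accessibility in this difference was not tested. ZNHIT1, VPS72, ACTR6 and YEATS4, which work with SRCAP in the exchange of H2A.Z, were at 0.28, 0.12, 0.11 and −0.12 (adjusted p from 0.296 to 0.741).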

How the data were processed

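ATAC-seq libraries of 4 HEK293T samples were grouped by their labels. The authors, per their methods, trimmed paired reads, aligned them to the telomere-to-telomere assembly CHM13 with bowtie2, kept proper pairs of mapping quality 30 or more, removed duplicates with Picard and took promoters as 2 kb windows around start sites. They deposited whole-number counts per promoter, 1 row per Entrez identifier, not normalised; it is assumed that the table counts the whole window by fragment midpoint. A Tn5 shift of read ends is not described, and windows of close genes overlap, so fragments can be counted more than once. Peak lists were not used here, since gene positions on CHM13 were not used. RefSeq tables of GRCh38.p14 named 28763 of 28775 promoters (12 unnamed) and gave sequences; the start sites they hold need not be those the authors used.

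All promoters were fitted with edgeR 4.0.16 in R 4.3.3 (filterByExpr, TMM, legacy quasi-likelihood, two-sided, Benjamini-Hochberg, threshold 0.05). The prior degrees of freedom were infinite, so promoters of like abundance shared a dispersion (common biological coefficient of variation 4.28%). SEs were computed from the F statistic, and intervals of 95% from the SEs. The test was tried on counts simulated at these library totals, over 23449 promoters with a coefficient of variation of 0.05. Of 100 changed by 0.5 (log2) 45% were recovered, and of 100 changed by 1 98% were, with 14 false calls. The 95% interval held the true change for 95% and 91% of them. All simulated libraries shared 1 composition, without the mitochondrial difference or the trend with accessibility. The simulation therefore cannot check the test under these. DESeq2 1.42.0, limma 3.58.1 (voom), other scalings and filters, the replicate number as a block and single libraries left out were alternatives. Figures and sequences used Python 3.11.15, pandas 2.3.3 and matplotlib 3.10.9.

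The members and gene lists were chosen with earlier results of these data known. Values are printed for members with an adjusted p under 0.05 and those with an unadjusted p under 0.05 whose groups do not overlap. They are also printed for the 3 highest and 5 lowest by mean CPM and 8 ATPases (SMARCA2, SMARCA4, SMARCA1, SMARCA5, CHD4, INO80, SRCAP and EP400). These 8 include CHD4, whereas the 8 catalytic ATPases grouped in the results include SMARCAD1 in its place. DPF3, BRD9, CHD3, CHD7 and other named members were chosen after their values were seen.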

Additional observations from a re-analysis of the deposited data

How the results depend on the processing

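Scaling had the largest influence. Library totals, which include mitochondrial counts, put the median over all promoters at −0.78 (log2) and the member median at −0.87, with 47 of 47 members and 59 of 60 partner genes past the threshold (69.7% of all promoters passed) and a median level of 23.1 CPM; SMARCE1, CHD5 and CHD2 were then at −0.66, −0.61 and −0.59. Relative to the median of all promoters the members stood at −0.088, so these calls follow the scaling. Upper-quartile scaling gave a member median of −0.0014 (0.090 for all promoters) and 0 partner genes, with ARID2, ACTL6B, SMARCA1 and EP400 at 0.063, 0.056, 0.040 and 0.013. Loess scaling gave 0 members (SRCAP −0.33, with 4 members at an unadjusted p under 0.05), 0 partner genes and a median of −0.027, with ARID2, SMARCE1, SMARCA5 and EP400 at 0.12, −0.083, 0.0065 and 0.018; across all promoters it left 71 calls (0.303%).

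With no filter the member median was −0.11. Requiring 10 or more counts in each library gave −0.056 and 1 partner gene, and ARID2 and ACTL6B were at 0.0081 and 0.0020. DESeq2 called 1 member, SRCAP, and 0 partner genes, where 108 of 2078 promoters with an adjusted p passed (5.20%) and 4 members kept one. Without mitochondrial promoters the median member level was 64.1 CPM, because the total was smaller.

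With single libraries left out, the lone sample of a group is assumed to vary like the other group. From 0 to 1 members and from 0 to 1 partner genes then passed, in fits where 0.404% to 0.854% of all promoters did, and the member median ran from −0.13 to −0.061. The sign changed in at least 1 of these 4 fits for 19 of 47 members; of the 17 members followed one by one, 6 did so, with ranges of −0.10 to 0.26 for SMARCE1, −0.076 to 0.035 for ACTL6B, −0.30 to 0.43 for CHD2, −0.29 to 0.074 for SMARCA1, −0.30 to 0.062 for INO80 and −0.16 to 0.048 for EP400. With the replicate number as a block, 1 member passed (SRCAP −0.49, adjusted p = 0.00603), the member median was −0.081 and 488 promoters passed overall; the deviations of same-numbered libraries correlated at 0.050 over 14976 promoters, so libraries of equal number were not treated as pairs. The cause of these differences was not tested. Low counts limit precision most in overexpression replicate 2, where 1 count was worth 0.343 CPM.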
